A study of Danio rerio with 6 samples.

Results

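The genes described here are regulators and receptors of endothelial cells, the cells that line blood and lymph vessels, measured in whole zebrafish embryos after exposure to leflunomide. The set was given as 10 gene symbols, and a probe set was taken wherever the annotation of the array platform gave it one of these symbols. By that rule 6 of the 10 genes were found, at 7 of the 15617 probe sets on the array: fli1 at 2 probe sets, and erg, tie1, tek, kdrl and flt4 at 1 each. No probe set bore the symbols kdr, cdh5, egfl7 or sox18, and those 4 genes were not analysed here. All 7 probe sets passed the filter on low values.

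Embryos of the Tu strain were exposed from the gastrula stage of 50% epiboly to an age of 24 hours after fertilization. The exposed group received leflunomide at 6.5 uM, an antirheumatic compound whose active form blocks an enzyme of pyrimidine synthesis, and the control group received the solvent DMSO. Each group had 3 arrays of total RNA from whole embryos, and both groups were otherwise of the same strain and age. The labels do not say how many embryos or clutches stood behind an array, so the p-values measure the spread between these arrays, which may be technical. In whole embryos, fewer endothelial cells and less RNA per endothelial cell cannot be told apart.

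Endothelial cells arise from mesoderm under Ets family transcription factors, among them Fli1 and Erg, which bind the regulatory regions of many vessel genes. Growing vessels respond to vascular endothelial growth factors (VEGF) through receptor tyrosine kinases. Kdrl is a main receptor for Vegfa in zebrafish, and Flt4 (VEGF receptor 3) binds Vegfc and acts in veins, in sprouts and in lymphatic development. Tek, also called Tie2, is the receptor for angiopoietins, and Tie1 is its close relative with no well-established ligand of its own. Transcripts of fli1 are also known from neural crest cells of the pharyngeal arches, so that gene is not a marker of vessels alone.

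Transcripts of 3 of the 6 genes fell after leflunomide: fli1 at 1 of its 2 probe sets, erg and tie1. tek and kdrl had differences of similar size (log2 -0.70 and -0.86) that did not pass the test, and flt4 was the only member with a higher mean (log2 0.33), also short of the test. Of the 7 probe sets, 3 were called lower, or 42.9%, where 10.8% of all 12788 tested probe sets were. A call here means an adjusted p under 0.05 in limma, with Benjamini-Hochberg adjustment over all tested probe sets. No member was called higher by limma, against 9.74% of all tested probe sets. The median log2 difference was -0.69 over the 7 probe sets and 0.04 over all tested ones.

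Every array value below is a log2 value centred on the median of its probe set over the 6 arrays, so a value of 0 is the middle of that probe set and not an absence of transcript. The absolute level was removed in the deposited table. A coarse level recovered from the rounding of the values put the median of all 7 probe sets between 4 and 8 on the log2 scale, so no order of level among the genes is given.

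The Ets factor gene fli1 was read by a pair of probe sets, and only the first was called. At the first the values were 0.46, 0.30 and 0.39 on DMSO arrays 1 to 3, and -0.30, -1.66 and -0.44 on leflunomide arrays 1 to 3. The groups did not overlap, and leflunomide array 2 lay far below the other two. The fitted log2 difference was -1.19 (SE 0.33, 95% interval -1.95 to -0.43, n = 3 and 3), a 2.28-fold fall with a limma adjusted p = 0.0405. Without leflunomide array 2 the log2 difference was -0.76, still called, so that array carried much of the size.

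At the second fli1 probe set the values were 0.06, -0.06 and 0.27 in DMSO and 0.06, -0.12 and -0.18 after leflunomide. The groups overlapped, and the log2 difference of -0.17 (95% interval -0.46 to 0.12) was not called (limma adjusted p = 0.395). The value of the first probe set minus that of the second was 0.40, 0.37 and 0.12 on the DMSO arrays and -0.37, -1.54 and -0.26 on the leflunomide arrays. These groups of differences did not overlap. The first probe set was the one with the lower group difference, so the sign of this contrast was fixed by that choice. The exact two-sided permutation test gave p = 0.10, the smallest that 3 arrays against 3 allow, and 0.133 after adjustment over the 4 such contrasts computed. Which transcripts of the gene each probe set reads was not analysed here.

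The related Ets factor gene erg had values of 0.15, 0.43 and 0.41 in DMSO and of -0.15, -0.63 and -0.30 after leflunomide. All leflunomide arrays lay below all DMSO arrays, with a gap of 0.29 between the nearest. The log2 difference was -0.69 (SE 0.15, 95% interval -1.04 to -0.33), a 1.61-fold fall (limma adjusted p = 0.0198). The first fli1 probe set minus erg changed by a log2 value of -0.50 between the groups, with all leflunomide arrays below all DMSO arrays (exact two-sided permutation p = 0.10, the smallest the design allows, adjusted 0.133). That contrast was -1.03 on leflunomide array 2, against -0.16 and -0.14 on arrays 1 and 3. It used the fli1 probe set with the larger fall. The second fli1 probe set had a smaller mean difference than erg (-0.17), and its contrast with erg was not computed. The fli1 paralog fli1rs, listed in RefSeq with the synonym fli1b, had a log2 difference of -0.38 with groups that did not overlap, and it was not called (limma adjusted p = 0.0905).

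**Figure D1:**
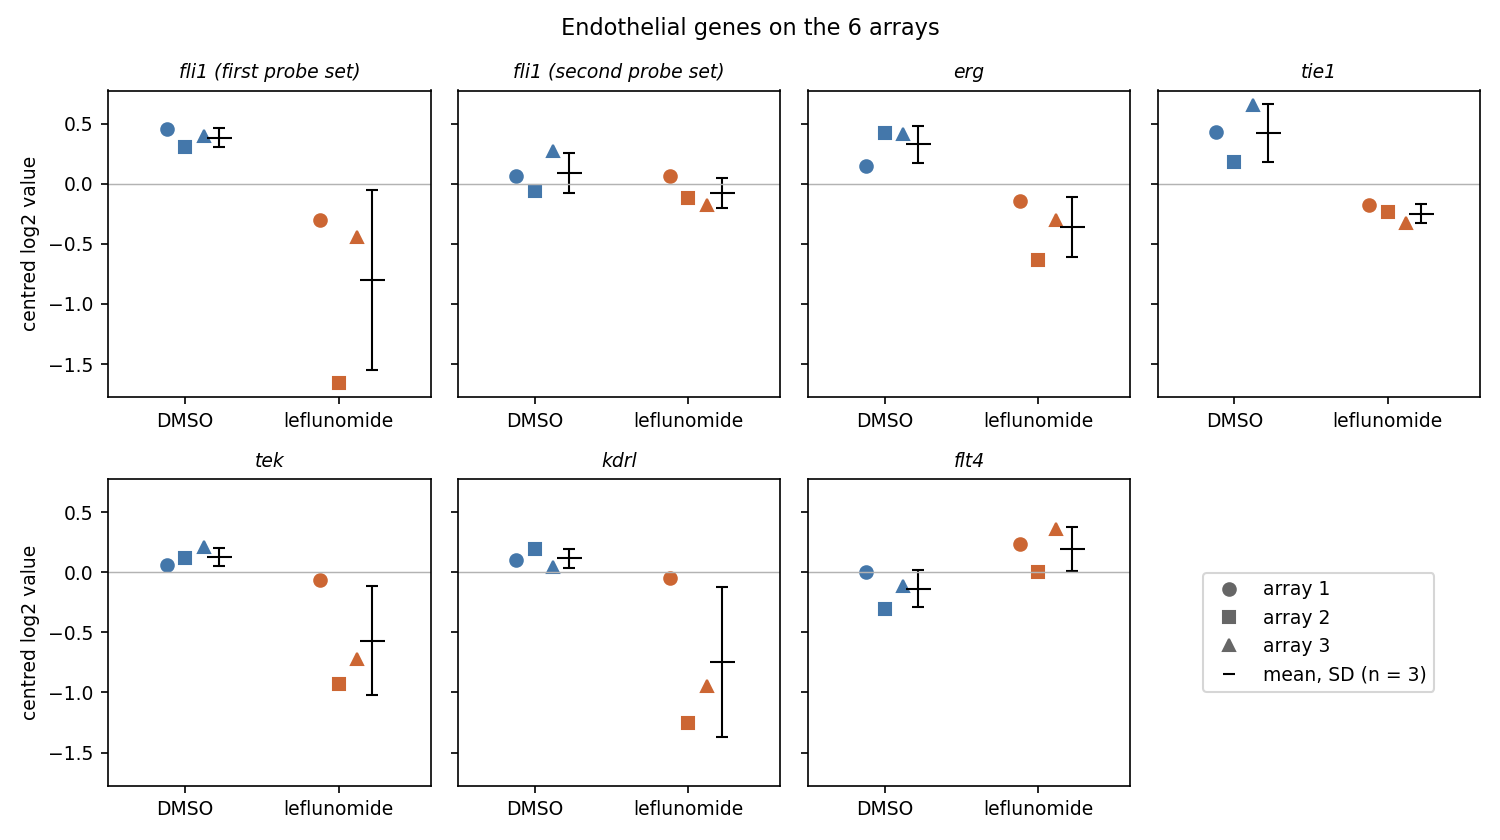
Centred log2 value (vertical axis) of each member probe set on the 3 DMSO and 3 leflunomide arrays; symbols mark the array number, and the bars at the side give the mean and SD of 3 arrays. The groups are apart at the first fli1 probe set, erg, tie1, tek and kdrl, and they overlap at the second fli1 probe set and at flt4.

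The angiopoietin receptor family showed close mean differences with unequal spread. tie1 had values of 0.43, 0.18 and 0.66 in DMSO and of -0.18, -0.24 and -0.33 after leflunomide. The leflunomide arrays agreed to an SD of 0.076, the smallest of the 7 probe sets, and the DMSO arrays spread more, with an SD of 0.24. The log2 difference of tie1 was -0.67 (SE 0.14, 95% interval -0.99 to -0.35), a 1.59-fold fall with the lowest limma adjusted p of the members (0.0154).

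tek had values of 0.06, 0.12 and 0.21 in DMSO and of -0.06, -0.93 and -0.72 after leflunomide. Leflunomide array 1 lay just below the DMSO arrays, by 0.12, while arrays 2 and 3 lay far below. The log2 difference of -0.70 (SE 0.21, 95% interval -1.19 to -0.21) narrowly missed the threshold (limma adjusted p = 0.0540). The difference between tek and tie1 in the same arrays changed by a log2 value of -0.03 between the groups (exact two-sided permutation p = 0.90). That comparison does not show that the 2 genes responded alike, since tek minus tie1 ran from -0.70 to 0.12 over the leflunomide arrays.

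The VEGF receptor genes had mean differences of opposite sign, neither of them called. kdrl had values of 0.10, 0.20 and 0.05 in DMSO and of -0.05, -1.25 and -0.94 after leflunomide. As with tek, array 1 of leflunomide lay just below the lowest DMSO array, here by 0.095, and the others lay well below it. The log2 difference of -0.86 (SE 0.28, 95% interval -1.51 to -0.22) was not called (limma adjusted p = 0.0652).

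flt4 had values of 0.00, -0.30 and -0.11 in DMSO and of 0.23, -0.00 and 0.36 after leflunomide. The groups touched, as DMSO array 1 lay just above leflunomide array 2. Its log2 difference of 0.33 (SE 0.13, 95% interval 0.02 to 0.65) was not called (limma adjusted p = 0.117). kdrl minus flt4 was 0.10, 0.50 and 0.16 on the DMSO arrays and -0.28, -1.25 and -1.30 on the leflunomide arrays, so all 3 leflunomide arrays lay below all 3 DMSO arrays. The exact two-sided permutation p was 0.10, the smallest the design allows, and 0.133 after adjustment.

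In all, 5 of the 7 probe sets (71.4%) had leflunomide values entirely below DMSO values, where 18.4% of all tested probe sets did. None had them entirely above, where 22.3% of all tested probe sets did. The members also varied more within groups than most: their median within-group SD was 0.21, against 0.16 over all tested probe sets. Part of that spread lay in leflunomide array 1. It was the leflunomide array nearest the DMSO mean for 6 of the 7 probe sets, and the median change of the members was -0.19 there, against -0.96 on array 2 and -0.75 on array 3. Over the probe sets called anywhere on the array, the median absolute changes were 0.55, 0.76 and 0.72 on leflunomide arrays 1 to 3. That set holds called probe sets alone and its changes are unsigned. The size of its array differences therefore cannot be compared with that of the members, some of which were not called.

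**Figure D2:**
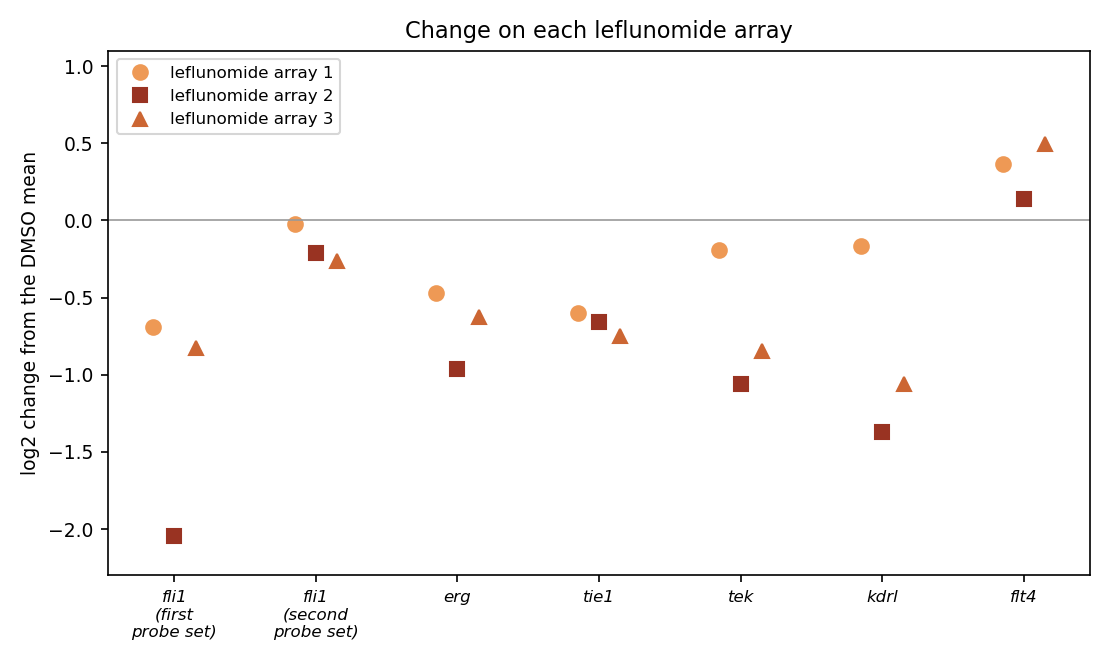
Log2 change of each member probe set from the mean of the DMSO arrays (vertical axis), with 1 symbol for each leflunomide array. tie1 has nearly equal values on the 3 arrays (-0.60 to -0.75), whereas tek and kdrl lie at -0.19 and -0.16 on array 1 and below -0.80 on the others; flt4 lies above 0 on all 3.

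The calls depended on single arrays. Without leflunomide array 1, 5 probe sets were called lower, since tek (log2 -0.96, limma adjusted p = 0.00252) and kdrl (-1.21, adjusted p = 0.00139) then passed as well. Without DMSO array 1 the call of erg alone was left, without DMSO array 2 that of tie1 alone, and without DMSO array 3 no member was called by limma (lowest adjusted p = 0.0510, for tie1). The fli1 call needed all 3 DMSO arrays and held when any single leflunomide array was left out. The direction of all 7 differences was the same in the 6 fits. Over all tested probe sets the count called lower fell as well, from 1375 to between 708 and 764 without a DMSO array.

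**Figure D3:**
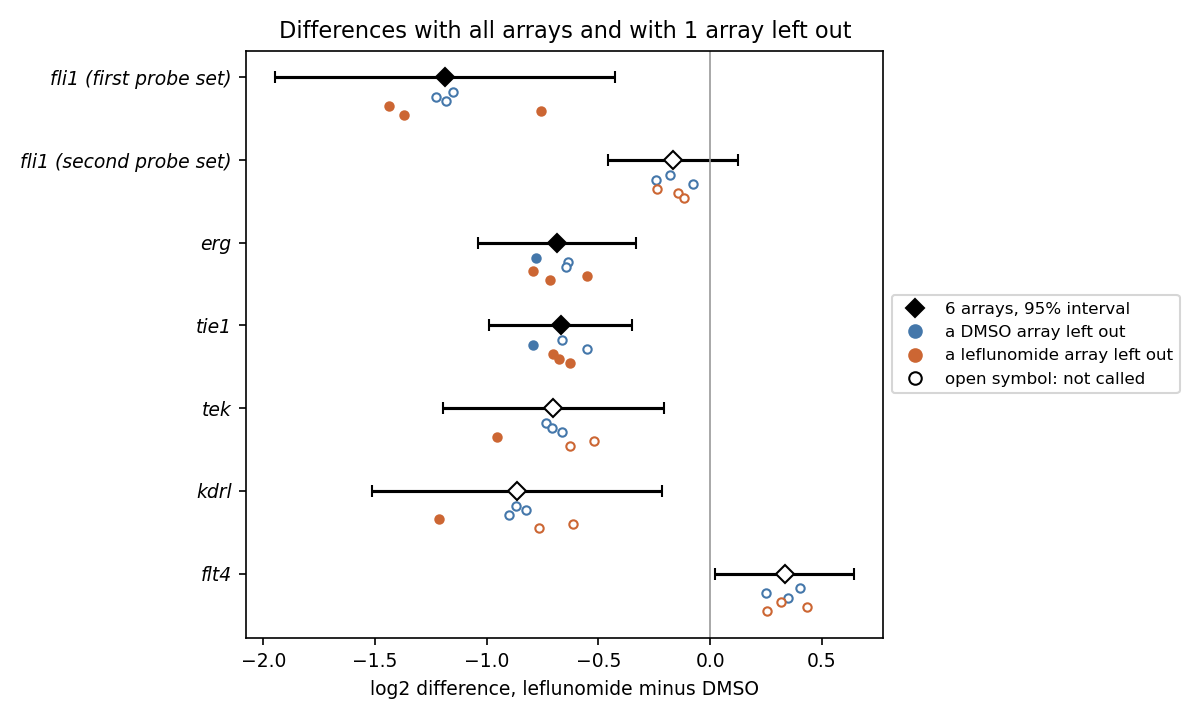
Log2 difference, leflunomide minus DMSO (horizontal axis), of each member probe set with its 95% interval from limma (diamonds), and the same difference with 1 array left out (circles). Filled symbols passed an adjusted p of 0.05; tek and kdrl are filled in 1 fit each, the one without leflunomide array 1.

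The other genes of vessels were taken from 4 lists of transcription factors, growth factors with coreceptors, artery and vein genes, and surface or junction genes. Of 99 symbols, 49 genes had a probe set and 48 were tested. Among these, 12 genes fell (25.0%) and 2 genes rose (4.17%), while 34 were not called. Over all tested probe sets 10.8% were called lower and 9.74% higher, shares that count probe sets and not genes. With 1 mean per gene, 961 of 7871 genes were called lower and 960 higher, and 13 and 3 of these 48. hey2 stood on 2 of the lists and was counted once among the 48. The median log2 difference was -0.10 over the 48 genes, against 0.04 over all tested probe sets. The 12 became 4 without DMSO array 1, 14 without leflunomide array 1 and 8 without leflunomide array 3. They became 5 when DMSO array 2, DMSO array 3 or leflunomide array 2 was the one left out. The 1375 called lower over all tested probe sets changed too. They became 764, 721 and 708 without DMSO arrays 1 to 3, and 1454, 833 and 1218 without leflunomide arrays 1 to 3. Whichever array was left out, the call held for only 5 of the 14 called genes: nr2f2, prox1a, vegfc, s1pr1 and crip2. Many genes of these lists are also active outside vessels, for example nr2f2, prox1a and gata2a in the nervous system.

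Among 16 tested transcription factor genes, 3 fell (18.8%, against 10.8% of all tested probe sets) and 1 rose (6.25%, against 9.74%). nr2f2, which promotes venous identity, had values of 0.50, 0.61 and 0.62 in DMSO and of -0.50, -1.05 and -0.68 after leflunomide, a log2 fall of 1.32 (SE 0.15, limma adjusted p = 0.00191). Its second probe set was called too, with -1.53. prox1a, a factor of lymphatic endothelium, lens and other tissues, fell by 1.28 (SE 0.18, adjusted p = 0.00366). hey2, the Notch target known in zebrafish as gridlock, fell by 0.40 (adjusted p = 0.0427). gata2a rose by 0.68 (SE 0.15, adjusted p = 0.0186). The factors of the common precursors of blood and vessels did not pass, with -0.27 for tal1 and -0.31 for lmo2. ets2 did not pass either, with -0.23. The groups did not overlap at tal1 and ets2 (limma adjusted p = 0.110 and 0.140), and they overlapped at lmo2. ets1 had -0.02 at one probe set, and -0.25 at the other, where the groups did not overlap (limma adjusted p = 0.156).

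The growth factor list held ligands of the receptors above. vegfc, which encodes the ligand of Flt4, was the 1 called of 6 tested genes (16.7% called higher, against 9.74% of all tested probe sets). Its values were -0.35, -0.34 and -0.21 in DMSO and 0.21, 0.23 and 0.43 after leflunomide. All leflunomide arrays lay above all DMSO arrays, and the gene rose 1.51-fold (log2 0.59, SE 0.11, limma adjusted p = 0.0102). vegfaa, which encodes a ligand of Kdrl, showed overlapping groups and a difference of -0.13 (SE 0.14, limma adjusted p = 0.587), which was 0.01 without leflunomide array 2. The angiopoietin genes angpt1 and angpt2b had 0.16 and -0.11, and the coreceptor genes nrp1a and nrp2b had 0.27 and 0.09. None of these 5 passed the test in limma.

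Of 12 tested artery, vein and Notch genes, 5 fell (41.7%, against 10.8% of all tested probe sets): dab2, an endocytic adaptor (log2 -1.30), apln, the ligand of the apelin receptors (-0.78), mrc1a, a scavenger receptor of veins and lymphatic vessels (-0.72), cxcr4a, a chemokine receptor (-0.56), and hey2. Their limma adjusted p-values ran from 0.0142 for apln to 0.0446 for dab2, and each call was lost in at least 2 of the 6 fits without 1 array. efnb2a, an arterial ligand, and its venous receptor partner ephb4a did not pass, at 0.33 and -0.08. Also not called were efnb2b, with 0.45 and 0.32 at its probe sets, notch1b (0.27), aplnra (0.05), ephb4b (-0.21) and notch3 (-0.27). At notch1b and at the efnb2b probe set with 0.32, all leflunomide arrays lay above all DMSO arrays. The median log2 difference of the list was -0.24. Of 15 tested surface and junction genes, 5 fell (33.3%, against the same 10.8%), and the list median log2 difference was -0.06. The 10 genes that were not called ran from -0.74 for plxnd1 to 0.37 for cldn5a. s1pr1, a receptor for sphingosine-1-phosphate, fell by 1.37 (SE 0.20, adjusted p = 0.00425), with -0.96 at its other probe set, also called. plvapb, which encodes a protein of endothelial fenestrae, fell by 1.25 (adjusted p = 0.0222), dusp5 by 1.00, crip2 by 0.93 and jam2a by 0.80. At plvapb and dusp5 leflunomide array 1 was again the nearest to DMSO. Their log2 changes from the DMSO mean were -0.555 and -0.453 on array 1, and between -1.685 and -1.164 on arrays 2 and 3. Array 1 thus lay further below the DMSO mean than at tek and kdrl (-0.19 and -0.16).

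**Figure D4:**
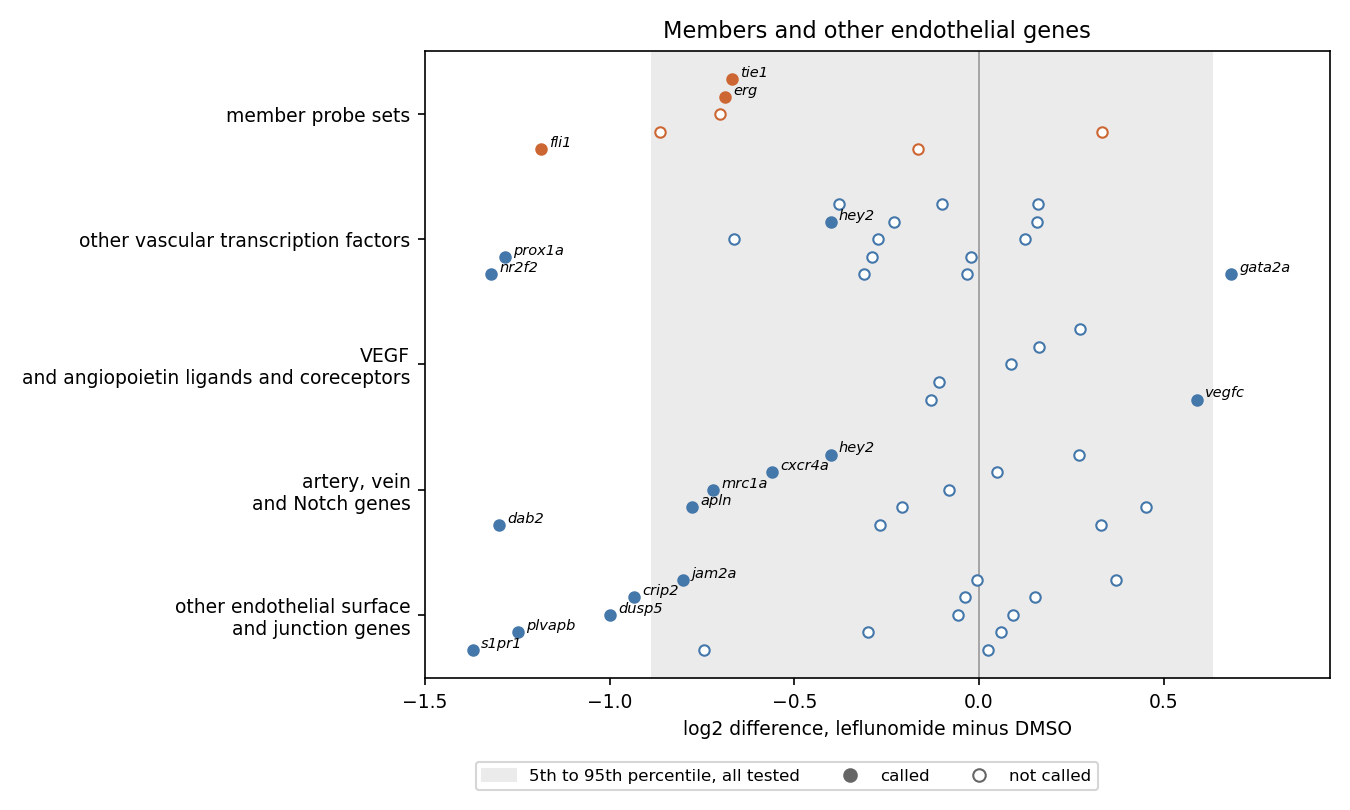
Log2 difference, leflunomide minus DMSO (horizontal axis), of the 7 member probe sets and of the tested genes of 4 vessel lists, 1 probe set a gene; filled circles were called and are named. The grey band runs from -0.89 to 0.63, the 5th and 95th percentiles of all tested probe sets, and so holds most of any probe sets. Of the list genes, nr2f2, prox1a, dab2, s1pr1, plvapb, dusp5 and crip2 lie below it and gata2a lies above it.

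Red blood cell and muscle genes moved in the same direction on the same arrays, and their part in the results above was not tested. Of 12 tested red blood cell genes, 11 fell (91.7%, against 10.8% of all tested probe sets), with a median log2 difference of -1.90. The mean centred value of the list was 0.94 to 0.97 on the DMSO arrays and -1.47 to -0.90 on the leflunomide arrays. Of 12 tested skeletal muscle genes, 11 fell (91.7%, against the same 10.8%, median -2.75), with list means of 1.29 to 1.38 and of -2.18 to -1.23. In both lists leflunomide array 1 was the nearest to DMSO. Of 10 tested blood progenitor and myeloid genes, 1 fell and 1 rose, against 10.8% and 9.74% of all tested probe sets. The median log2 difference was -0.19, with list means of -0.004 to 0.10 in DMSO and -0.20 to 0.03 after leflunomide. The gene that fell was lyz (log2 -2.43, limma adjusted p = 0.000768). The gene that rose was mpx (log2 2.03). Another mpx probe set was called lower (-0.41, limma adjusted p = 0.0393), and the remaining mpx probe sets were not called (0.08 and -0.01). coro1a counted as not called (-0.10), while its other probe set was called lower (-1.20, limma adjusted p = 0.0173). Of 5 tested mural cell and endocardium genes, 1 fell, the muscle gene desma, and acta2 and tagln of smooth muscle had -0.06 and 0.10; the list means were 0.13 to 0.21 and -0.33 to -0.11. Neural crest transcripts were added to the comparison with their values known, because fli1 is also expressed in crest. crestin had log2 changes from the DMSO mean of -2.43 on leflunomide array 1 and of -3.66 on each of arrays 2 and 3. The falls of sox10 and foxd3 were smaller. On leflunomide arrays 1 to 3, sox10 had changes of -0.83, -0.92 and -0.99, and foxd3 had -1.27, -1.64 and -1.72. The 3' minus 5' values of the actin and GAPDH controls moved in opposite directions. The actin control, labelled acta1, had -0.87 to -0.48 in DMSO and 0.48 to 0.64 after leflunomide. The GAPDH control had -0.09 to 0.18 and -0.91 to -0.11. The muscle actin gene acta1a itself fell (log2 -1.13), and whether these control values reflect RNA quality was not tested. On leflunomide array 3 the 3' minus 5' value was 0.44 to 1.76 for the DapX, LysX, PheX and ThrX spike-in controls, against -0.58 to 0.22 on the other 5 arrays, and that array had the lowest limma array weight (0.489). Without it the same 3 member probe sets were called lower.

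By root mean square distance between centred log2 values over the 6 arrays, the profiles closest to tie1 among all named genes were those of ppp1r15a (0.089), wu:fb55g09 (0.089) and six2a (0.0996). Those closest to erg were ppp2r2ca (0.059), rheb (0.067) and mettl5 (0.071). Those closest to the first fli1 probe set were kera (0.153), fxyd11 (0.182) and hs6st1a (0.189). No gene of the 4 vessel lists was among them. Among the members themselves tek and kdrl were the closest pair, at a distance of 0.177, and the first fli1 probe set and flt4 the farthest, at 0.867.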

How the data were processed

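Total RNA was measured on 6 one-colour Affymetrix zebrafish arrays, with group and replicate number read from each title. The log2 values in the deposited table came from GCRMA, a background correction, quantile normalization and probe set summary, per the submitters' processing notes. The GCRMA version is not stated there. In the deposited values every probe set has a median of 0 over the 6 arrays, a step no source used here states, so absolute levels are lost and differences between arrays are kept. The log base was taken as 2, the scale of GCRMA.

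The rounding step of the single-precision values, which doubles when a level crosses 4 or 8, gave a coarse median level. It was read from values of 0.001 to 1 in size at or above the lower middle value, with a tolerance of 0.2 steps. A step can look coarser by accident, so some levels are overstated. Of 15502 probe sets that are not controls, 12788 had a level of at least 4 and were tested, and 115 controls were left out. The platform annotation gave 1 gene to 10795 of the 15502, several to 135 and none to 4572; only the first were named, with symbols updated through RefSeq gene identifiers (assembly GRCz12tu), which 10711 matched. A gene of a list was represented by its probe set of highest recovered level, ties going to the more specific suffix. Remaining ties, as for coro1a, went to the probe set whose name came first in alphabetical order. Close paralogs may share signal.

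The difference between the groups was estimated in limma 3.58.1 (lmFit, then eBayes) under R 4.3.3, two-sided, with Benjamini-Hochberg adjustment over all tested probe sets. The fit was tested on simulated data before use. Contrasts within arrays used exact permutation in Python 3.11.15. The members and lists were chosen with earlier results of these data known. Named were all members, up to 6 called genes of each list, and the measured ligands and coreceptors. The 3 nearest profiles of the 3 members with the lowest adjusted p were named too. Other uncalled list genes and the crest genes crestin, sox10 and foxd3 were named with their values known. Alternatives covered the filter, scaling, variance model, array weights, replicate block, each array left out, thresholds and gene means. The number of arrays limits the precision. Any 2 arrays had identical values in at most 2 probe sets. Sequences of probes, promoters and proteins were not used here.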

Additional observations from a re-analysis of the deposited data

How the results depend on the processing

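Members called lower numbered 3 in limma, and 3 also without the filter, with medians or 75th percentiles aligned, with robust variances, with the replicate block and with at least 1.5-fold required. The number was 5 with array weights, when tek and kdrl passed. Over all tested probe sets, array weights gave 1525 lower and 1346 higher, against 1375 and 1246 in the main fit. The number of members called lower was 0 without moderation of the variance or at an adjusted p under 0.01. With 1 array left out it ran from 0 to 5. With 1 mean per gene, 4 of 6 genes were called lower, among them fli1 (log2 -0.68, adjusted p = 0.0370) and tek. No member was at a recovered level of at least 8, so that filter gave no value. No setting called a member higher, and no member reversed. Of the single genes, vegfaa ran from -0.235 to 0.0106 with 1 array left out, the latter without leflunomide array 2 (adjusted p = 0.967); the cause was not tested.

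Over all probe sets, 1375 were called lower and 1246 higher. These became 581 and 685 at a level of at least 8 (4443 tested), 461 and 375 without moderation, and 573 and 293 at an adjusted p under 0.01; 657 were higher by at least 1.5-fold. With 75th percentiles aligned the counts were 1500 and 989. With 1 array left out they ran from 708 to 1454 lower and from 413 to 1383 higher. Of 48 other endothelial genes, 12 were called lower and 2 higher. At a level of at least 8 only 10 of these genes were tested, with 4 lower and 0 higher, against 581 and 685 of the 4443 probe sets. Over the 48, the counts were 1 and 1 without moderation, and 4 and 0 at an adjusted p under 0.01. With 1 array left out they ran from 4 to 14 lower and from 1 to 4 higher.

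Same-numbered arrays deviated together with correlations of 0.332, 0.190 and 0.073, each the highest for its number, and nothing in the labels pairs them. The replicate block gave 1302 lower and 1254 higher, the same 3 member probe sets lower, and 13 and 2 other endothelial genes. With the block hey2 was not called (adjusted p = 0.0699), while hey1 (adjusted p = 0.0154) and plxnd1 (adjusted p = 0.0370) were called lower; no other call among the members and vessel lists changed. Signal over background on a single array is unknown, since the deposited values are centred.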
